A study of Mus musculus with 26 samples.

Results

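The mucolipin, polycystin and TRPV genes measured here encode cation channels and channel partners of the transient receptor potential (TRP) superfamily. The set held 10 of the 23337 genes in the count tables, namely *Mcoln1*, *Mcoln2*, *Mcoln3*, *Pkd1*, *Pkd2*, *Pkd2l1*, *Pkd2l2*, *Trpv4*, *Trpv5* and *Trpv6*, each with 1 row. *Mcoln3* and *Pkd2l1* were chosen by their measured fall in the ArKI caput, and the other 8 were added as relatives by name. The ArKI caput values of *Mcoln3* and *Pkd2l1* are therefore given as a description without a test, and the question asked of the data is what the relatives did. RNA was sequenced from 2 parts of the epididymis, its initial segment (IS) and caput, with 5 ArKI and 5 WT samples of each, and from testes, with 3 samples of either genotype. The animals were males. They were 3 months old and of the C57Bl/6N; 129 hybrid strain. ArKI mice carry a knock-in allele in the germ line, and WT mice do not.

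Mucolipins are cation channels of endosomes and lysosomes that let calcium out of these organelles, and they open when a phosphoinositide made on the same membranes binds them. *Pkd1* encodes a large receptor-like protein that assembles with the channel encoded by *Pkd2* on the primary cilium, and loss of either gives polycystic kidney disease. *Pkd2l1* and *Pkd2l2* encode channels like that of *Pkd2*. TRPV5 and TRPV6 are calcium-selective entry channels of absorbing epithelia, and in the epididymis TRPV6 takes calcium up from the fluid around the sperm, while TRPV4 responds to osmotic and thermal stimuli.

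Total counts per sample ranged from 4125768 in the ArKI caput to 21376604 in the ArKI testis. The tissue labels were read against marker lists. The summed level of 4 initial segment markers (*Cst8*, *Ros1*, *Lcn8*, *Rnase10*) was 24884 to 27508 CPM (a gene's counts divided by the TMM-scaled library size in megacounts) in WT IS and 495 to 2948 CPM in WT caput, and that of 10 sperm and late spermatid markers was 23417 to 29202 CPM in WT testis. The testis libraries were sequenced in another batch than the epididymal ones, so tissue and batch cannot be told apart. In whole tissue, fewer cells of a type and less RNA per cell cannot be told apart either.

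Upstream sequence is shown for *Mcoln3*, whose fall the set is built around, from the promoter window that RefSeq (GRCm38.p6) gives for it. It reads 5′ to 3′ on the strand of the gene and ends before the first annotated start in the window. The stretch is chr3:146121541-146121671 on the plus strand, and lies in an intron of a longer annotated transcript that begins farther upstream.
Mcoln3: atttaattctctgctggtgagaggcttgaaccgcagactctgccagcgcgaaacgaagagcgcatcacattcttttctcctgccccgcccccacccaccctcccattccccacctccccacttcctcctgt

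Among the mucolipins, *Mcoln3* (chr3:146117450-146141806, GRCm38) was the member on which the choice rested. WT caput samples had 12.3, 18.6, 11.2, 15.3 and 17.2 CPM in replicates 1 to 5. ArKI caput samples had 2.61, 1.05, 2.71, 3.65 and 1.95 CPM. The highest ArKI sample lay below the lowest WT sample, and the mean fell from 14.9 ± 3.15 CPM (SD, n = 5) to 2.40 ± 0.966 CPM (n = 5), which was 16.1% of the WT caput mean and 39.5% of the WT IS mean. The log2 fold change was -2.56 ± 0.21 (SE). *Mcoln3* did not move in the same way one segment upstream. WT IS samples had 5.47, 5.37, 4.68, 5.20 and 9.62 CPM, ArKI IS samples had 6.39, 3.83, 9.86, 5.12 and 6.32 CPM, and the groups overlapped throughout (log2 fold change 0.04 ± 0.25 SE, adjusted p = 0.92). The value was -0.17 without replicate 3 of the ArKI IS, fell slightly below 0 without replicate 2, 3 or 4 of the WT IS, and was 0.28 without replicate 5 of the WT IS. In the testis *Mcoln3* had 0 counts in all 6 samples, which allows a level of up to 0.265 CPM in the shallowest of them, taking 3 counts as the limit for counting error.

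*Mcoln1* (chr8:3500457-3515232), the broadly expressed lysosomal mucolipin, also fell in the ArKI caput, but by much less. Its level was 84.0, 87.6, 83.7, 81.0 and 90.1 CPM in WT caput samples and 63.7, 57.2, 63.5, 66.5 and 64.5 CPM in ArKI caput samples. All ArKI samples were below all WT samples, and the ArKI mean was 74.0% of the WT mean (log2 fold change -0.43 ± 0.05 SE, adjusted p = 3.5e-06). In the IS the values were 63.5, 63.7, 56.0, 58.0 and 60.4 CPM in WT and 56.9, 45.3, 42.3, 47.8 and 49.8 CPM in ArKI. Replicate 1 of the ArKI IS lay just above replicate 3 of the WT IS, and the other ArKI samples were below all WT samples (-0.32 ± 0.07, adjusted p = 0.0014). The effects in caput and IS did not differ beyond their error (difference -0.12 ± 0.08, adjusted p = 0.39). In the testis *Mcoln1* stood at 12.2 ± 1.15 CPM in WT and 13.1 ± 0.937 CPM in ArKI (n = 3 each), with overlapping groups (0.08 ± 0.11, adjusted p = 0.82). *Mcoln2* (chr3:146149833-146195513), a mucolipin known from immune cells, had at most 4 counts in any caput sample, 7 in any IS sample and 19 in any testis sample, and was left out of the fits by the count filter in all 3 tissues. Its exact two-sided permutation tests gave p = 0.33 in the caput, p = 0.41 in the IS and p = 0.20 in the testis, where the design allows no p below 0.10.

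**Figure D1:**
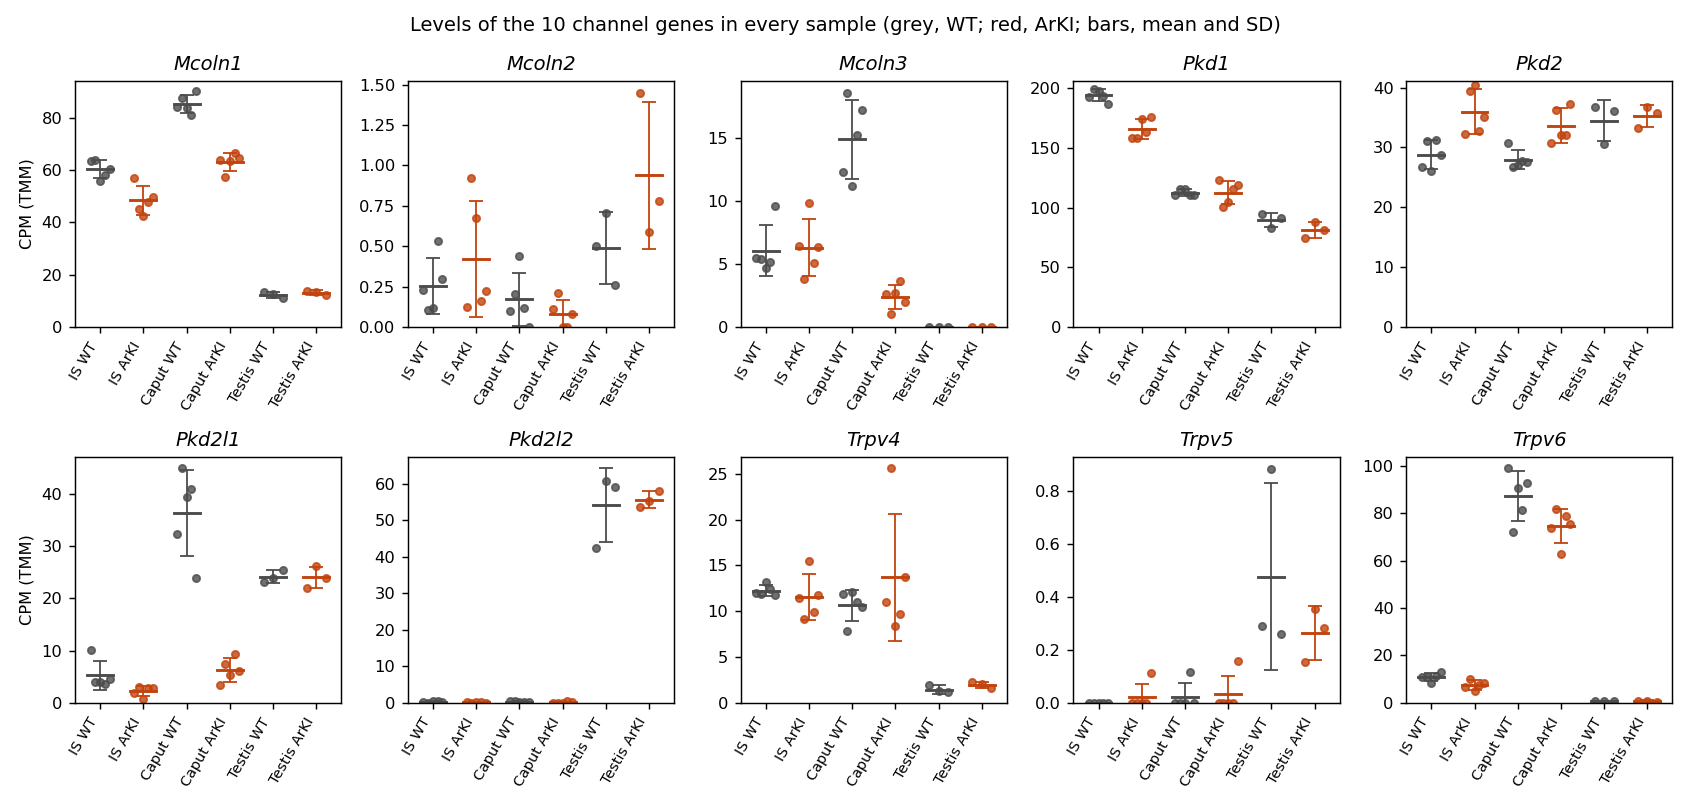
CPM scaled by TMM over all 26 samples (vertical axis, linear and starting at 0) of each gene in the 6 groups, with 1 point for each sample in the order of replicates and bars for the group mean and SD. *Mcoln3* and *Pkd2l1* stand apart in WT caput against ArKI caput, *Mcoln1* shows a smaller step without overlap, and *Pkd2l2* has appreciable counts in the testis samples alone among those plotted.

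Among the polycystins, *Pkd2l1* (chr19:44147637-44192442) was the other member chosen by its caput value. WT caput samples had 32.4, 45.005, 39.6, 41.0 and 23.9 CPM, and ArKI caput samples had 3.30, 7.36, 5.33, 9.25 and 6.09 CPM. The groups did not overlap, and the mean went from 36.4 ± 8.31 CPM to 6.27 ± 2.23 CPM (n = 5 each), or 17.2% of WT (log2 fold change -2.54 ± 0.25 SE). That ArKI caput mean was 120% of the WT IS mean. Unlike *Mcoln3*, *Pkd2l1* was lower in the ArKI IS as well. WT IS samples had 10.03, 3.86, 3.97, 3.60 and 4.62 CPM and ArKI IS samples had 1.75, 3.03, 0.675, 2.72 and 2.77 CPM. The lowest WT sample was above the highest ArKI sample, and replicate 1 of the WT IS stood far above the other WT samples (-1.25 ± 0.37 SE, adjusted p = 0.023). Without that library the log2 fold change was -0.87 (adjusted p = 0.027), and without replicate 1 of the ArKI IS the call was lost (-1.17, adjusted p = 0.063). In the testis *Pkd2l1* did not pass the test, with overlapping groups of 23.1, 23.8 and 25.6 CPM in WT and 22.1, 26.2 and 23.9 CPM in ArKI (-0.03 ± 0.09, adjusted p = 0.94).

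Sperm and late spermatid RNA was lower in the ArKI samples of both segments. In the caput 10 of 10 sperm markers were called lower in ArKI, where 14.0% of all genes tested were. Their summed level there was 248 to 392 CPM in WT and 37.7 to 108 CPM in ArKI samples. In the IS it was 11.3 to 76.1 CPM in WT and 2.03 to 6.08 CPM in ArKI samples. The mean of *Mcoln3* was 6.07 CPM in WT IS and 6.30 CPM in ArKI IS. *Mcoln3* had no count in the testis, where the same markers reached 23417 CPM or more. *Pkd2l1* was at 24.2 ± 1.26 CPM in WT testis (n = 3), beside 36.4 CPM in WT caput, where the same markers summed to at most 392 CPM. The part of sperm RNA in the changes of any member was not tested.

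*Pkd1* (chr17:24549834-24596508) and its partner *Pkd2* (chr5:104459450-104505819) did not move together. In the caput *Pkd1* had 111, 116, 115, 111 and 111 CPM in WT samples and 123, 100, 105, 116 and 119 CPM in ArKI samples, the ArKI values lying on both sides of the WT values (log2 fold change -0.0027 ± 0.053 SE, adjusted p = 0.98). In the IS it had 193, 200, 198, 194 and 187 CPM in WT and 158, 158, 174, 164 and 176 CPM in ArKI samples. The groups did not overlap there, and *Pkd1* was called lower (-0.23 ± 0.04, adjusted p = 0.00068). *Pkd2* was called higher in both segments. Caput values were 30.8, 26.8, 27.1, 27.7 and 27.6 CPM in WT and 30.8, 36.2, 32.0, 32.1 and 37.3 CPM in ArKI, where replicate 1 of each genotype reached the same level and the other ArKI samples were above all WT samples (0.26 ± 0.07, adjusted p = 0.013). IS values were 26.8, 31.1, 26.1, 31.2 and 28.8 CPM in WT and 32.2, 39.5, 40.4, 32.8 and 35.2 CPM in ArKI, without overlap (0.32 ± 0.08, adjusted p = 0.0044). In the testis *Pkd2* did not pass the test (0.01 ± 0.09, adjusted p = 0.98), and *Pkd1* had 94.2, 83.2 and 91.0 CPM in WT and 74.4, 87.8 and 81.3 CPM in ArKI (-0.16 ± 0.07, unadjusted p = 0.039 from the edgeR test, adjusted p = 0.35).

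*Pkd2l2* (chr18:34408489-34444116) was a testis transcript in these samples, with 42.5, 60.8 and 59.0 CPM in WT and 53.6, 55.2 and 58.2 CPM in ArKI testis. The ArKI values fell within the WT range (0.02 ± 0.10 SE, adjusted p = 0.95). In the epididymis it had at most 4 counts in any sample. Its caput counts summed to 13 over the WT and 5 over the ArKI samples, with an exact permutation p of 0.048 that became 0.33 after adjustment over the 7 such tests of rarely counted members.

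Among the TRPV genes, *Trpv6* (chr6:41620624-41636405) was the abundant member of the caput. It had 98.9, 71.9, 90.8, 81.5 and 92.9 CPM in WT caput and 73.9, 81.8, 62.8, 78.8 and 75.6 CPM in ArKI caput. Most ArKI values were below most WT values but the ranges overlapped (log2 fold change -0.23 ± 0.09 SE, adjusted p = 0.086), and without replicate 2 of the WT caput, the lowest of its group, the value passed the test (-0.30, adjusted p = 0.014). In the IS, where the gene is scarcer, samples had 10.9, 10.7, 8.18, 11.3 and 13.1 CPM in WT and 6.77, 10.2, 4.73, 7.36 and 8.32 CPM in ArKI. Replicate 3 of the WT IS fell among the ArKI values, and *Trpv6* was called lower (-0.54 ± 0.17, adjusted p = 0.020). The call did not hold without replicate 1 of the ArKI IS (-0.50, adjusted p = 0.052) or replicate 5 of the WT IS (-0.46, adjusted p = 0.061). The effects in caput and IS were not shown to differ (0.30 ± 0.21, adjusted p = 0.37). In the testis *Trpv6* had 2 to 12 counts per sample and an exact permutation p of 1.

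*Trpv4* (chr5:114622152-114658421) did not pass the test in any tissue. In the caput it had 11.9, 7.88, 12.1, 11.02 and 10.5 CPM in WT and 11.02, 25.7, 8.38, 9.74 and 13.7 CPM in ArKI. The high value belonged to replicate 2 of the ArKI caput, the shallowest library with 4125768 counts, and the fold change of 0.27 ± 0.30 (adjusted p = 0.56) became 0.0040 without it (adjusted p = 0.99). In the IS the means were 12.3 ± 0.582 CPM in WT and 11.5 ± 2.48 CPM in ArKI (-0.08 ± 0.12, adjusted p = 0.67), and in the testis 1.43 ± 0.446 and 1.97 ± 0.333 CPM (0.40 ± 0.28, adjusted p = 0.57). *Trpv5* (chr6:41652173-41680769), the renal calcium entry channel, had 1 count over all WT and 2 over all ArKI caput samples, 0 and 1 in the IS, and 17 and 12 in the testis, where its exact permutation p was 0.50.

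**Figure D2:**
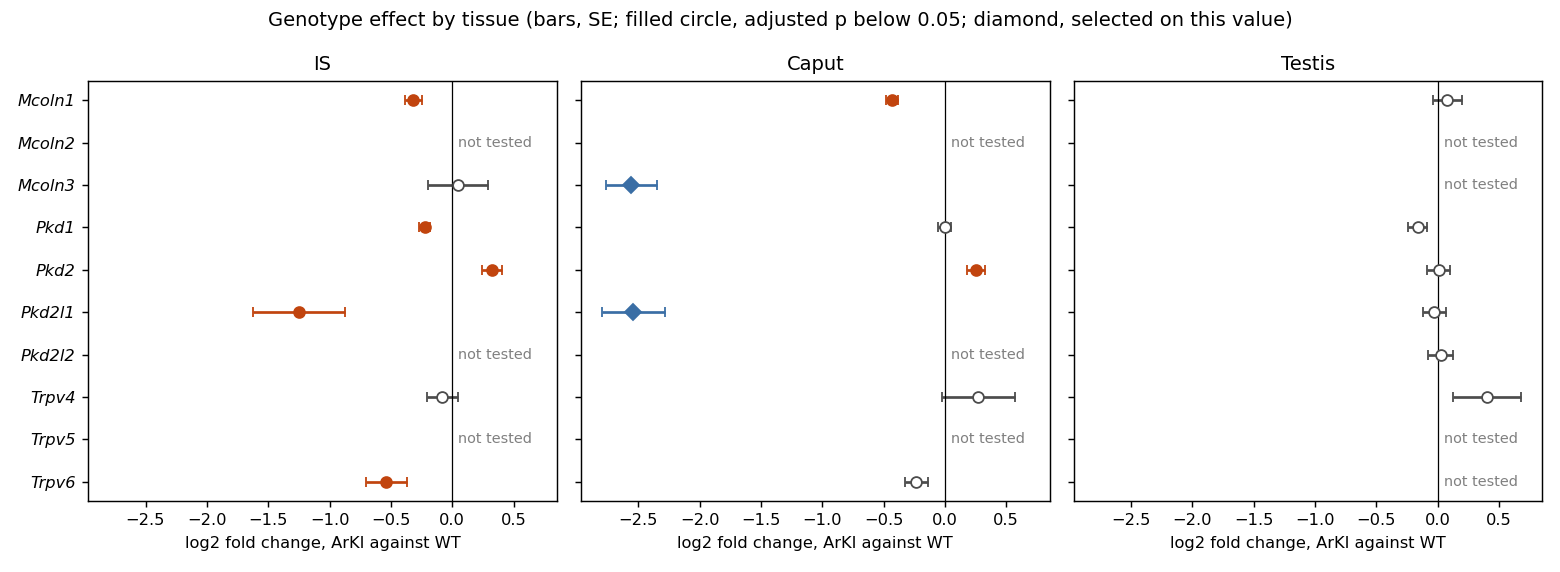
Log2 fold change of ArKI against WT (horizontal axis) with its SE for each gene in the IS, caput and testis, filled circles passing an adjusted p of 0.05 and diamonds marking the caput values by which *Mcoln3* and *Pkd2l1* were chosen. The relatives' caput values lie between -0.43 and 0.27, against -2.56 and -2.54 for the chosen pair.

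Counts of calls were read against all genes. Of the 5 relatives tested there, 1 was called higher (*Pkd2*) and 1 lower (*Mcoln1*), where 13.7% of 13726 genes were called higher and 14.0% lower. Only *Mcoln1* of these 5 had groups that did not overlap, which held for 19.8% of all genes tested. In the IS, 7 members were tested, of which 1 was called higher (*Pkd2*) and 4 lower (*Mcoln1*, *Pkd1*, *Pkd2l1* and *Trpv6*), against 15.0% and 14.6% of 13434 genes, and 3 had groups without overlap (*Pkd1*, *Pkd2* and *Pkd2l1*) against 20.1%. In the testis edgeR called 0 of 6 members, as did DESeq2 and limma voom, with 1 at an unadjusted p under 0.05 (*Pkd1*). There 1.64% of 15838 genes were called higher and 0.328% lower, and no member had groups without overlap, against 17.4% of genes. At the study's own thresholds (a fold change above 2 at a false discovery rate limit of 0.01 for both epididymal segments and 0.2 for the testis) edgeR called 0 of the 5 relatives in the caput, 0 of the 7 members in the IS and 0 of the 6 in the testis, where 4.98% of genes were in the caput, 4.04% in the IS and 0.833% in the testis. At an unadjusted p under 0.05 there were 3 in the caput, 5 in the IS and 1 in the testis, and *Pkd2l1* in the IS passed the fold change limit (2.37-fold) but not the false discovery rate.

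Both segments were taken from the same 5 mice of each genotype, and since no label ties a caput to an IS sample, the comparisons between segments treated them as separate samples. Of the 5 members whose segment by genotype interaction was tested, *Pkd1* was called, its effect being 0.22 ± 0.07 higher on the log2 scale in the caput than in the IS (adjusted p = 0.026), where 15.1% of 14329 genes were called. The call was lost, with adjusted p of 0.052 to 0.077, in each of 12 fits that left out 1 of the 20 libraries, namely replicates 1, 2 and 4 of the ArKI IS, 1, 2 and 3 of the WT IS, 1, 4 and 5 of the WT caput and 1, 4 and 5 of the ArKI caput. The interaction values of *Mcoln3* (-2.60 ± 0.36 SE) and *Pkd2l1* (-1.30 ± 0.54) include the caput contrast that chose them and carry no test.

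Markers of the segment and of other cell types moved with genotype. Of all genes tested, 15.0% were called higher and 14.6% lower in the IS, and 13.7% higher and 14.0% lower in the caput. In ArKI IS 3 of 4 initial segment principal cell markers were called lower (24884 to 27508 CPM in WT and 18695 to 21985 CPM in ArKI samples). In the caput 1 of these 4 was called higher and the median log2 fold change of the 4 was -1.54, with overlapping sums (495 to 2948 CPM in WT and 542 to 1432 CPM in ArKI samples). Of 4 caput principal cell markers 1 was called lower in the caput, and 1 was called higher and 1 lower in the IS, again with overlapping sums. Of the clear and narrow cell markers tested, 3 were called higher and 1 lower in either segment, with overlapping sums. In ArKI IS 5 of 5 smooth muscle markers were called lower (summed level 514 to 593 CPM in WT and 224 to 400 CPM in ArKI samples), as were 4 of 5 basal cell, 4 of 5 macrophage and 4 of 4 endothelial markers, and 3 of 3 ciliated cell markers tested were called higher (37.7 to 52.7 CPM in WT and 58.5 to 184 CPM in ArKI). In the caput the summed levels of WT and ArKI samples overlapped for smooth muscle (717 to 898 and 593 to 1299.5 CPM), basal cell (254 to 307 and 272 to 297 CPM) and macrophage markers (67.2 to 88.4 and 75.5 to 99.9 CPM), and 2 of 4 endothelial markers were called higher (39.0 to 41.6 CPM in WT and 45.3 to 64.8 CPM in ArKI). Of the ciliated cell markers 1 of 2 tested was called lower in the caput. No marker in the tables from the lists above was at 0 throughout any epididymal group. Among markers of testis cells, 2 of 2 Sertoli and 1 of 3 Leydig cell markers tested were called higher in the ArKI IS. The Sertoli cell marker *Gata1* was at 0 throughout ArKI IS, and the spermatocyte marker *Stra8* throughout WT IS and WT caput. The part of these markers' cell types in the changes of *Mcoln1*, *Pkd1*, *Pkd2*, *Pkd2l1* and *Trpv6* was not tested.

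The members differed widely among the WT tissues. *Trpv6* was 8.06-fold higher in the caput than in the IS (log2 difference 3.01 ± 0.10 SE, adjusted p = 9.7e-17) and at 0.623 ± 0.023 CPM in the testis (n = 3). *Mcoln1* followed the same order, caput above IS (0.51 ± 0.05, adjusted p = 1.7e-08) and IS above testis (testis against IS -2.25 ± 0.08, adjusted p = 1.0e-18). *Pkd1* ran the other way within the epididymis, the caput being lower than the IS (-0.78 ± 0.04, adjusted p = 2.5e-13) and the testis lower than the caput (-0.29 ± 0.05, adjusted p = 1.4e-05), a value that was -0.68 with library size only, -0.17 with RLE factors and -0.17 in DESeq2. *Pkd2* and *Trpv4* did not differ between caput and IS beyond their error (-0.03 ± 0.08, adjusted p = 0.77, and -0.19 ± 0.12, adjusted p = 0.17). *Trpv4* was lower in the testis than in either. The testis level of *Pkd2* was 0.31 ± 0.08 above that of the IS, but this value became -0.10 when libraries were scaled by size only, a change that moved the median of all genes from 0.19 to -0.22. *Pkd2l2* had 590 to 689 counts per sample in WT testis and at most 4 in WT IS and caput, and since it passed the filter through the testis alone, no fold change is given. The caput levels of the chosen pair are a description, *Mcoln3* running from caput (14.9 CPM) to IS (6.07 CPM) to no count in the testis, and *Pkd2l1* from caput (36.4 CPM) to testis (24.2 CPM) to IS (5.22 CPM), with testis and caput samples overlapping. Testis against IS was tested for *Pkd2l1* (2.25 ± 0.30, adjusted p = 1.4e-05). Of all 16402 genes 64.4% were called between caput and IS, 91.9% between testis and IS and 92.0% between testis and caput, so a call between tissues does not set a member apart.

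Levels were compared between members per length, as CPM divided by exon length in kilobases (RPKM). In WT caput *Mcoln1* led the mucolipins with 41.3 ± 1.73 RPKM against 4.99 ± 1.05 for *Mcoln3*, *Trpv6* led the TRPV genes with 29.8 ± 3.63 RPKM against 3.30 ± 0.520 for *Trpv4*, and *Pkd2l1* led the polycystins with 10.95 ± 2.501 RPKM, above *Pkd1* (7.67 ± 0.185) and *Pkd2* (5.36 ± 0.310). In ArKI caput *Pkd2l1* had 1.89 ± 0.671 RPKM and ranked below *Pkd1* (7.66 ± 0.646) and *Pkd2* (6.45 ± 0.548). The share of *Pkd2l1* in the summed polycystin RPKM was 35.9% to 50.8% in WT caput and 6.50% to 16.5% in ArKI caput samples, and the sum itself was 24.1 ± 2.53 RPKM in WT and 16.0 ± 0.968 RPKM in ArKI. *Pkd1* led in WT IS with 13.2 ± 0.341 RPKM, and *Pkd2l2* in WT testis with 13.6 ± 2.54 RPKM. The summed mucolipin RPKM was 46.3 ± 2.48 in WT caput and 31.4 ± 1.95 in ArKI caput, next to 31.3 ± 1.85 in WT IS. *Mcoln3* made up 8.41% to 12.8% of it in WT caput and 1.25% to 3.65% in ArKI caput samples. The caput sums, shares and ranks of both families contain the values by which *Pkd2l1* and *Mcoln3* were chosen. They restate that choice and carry no test.

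**Figure D3:**
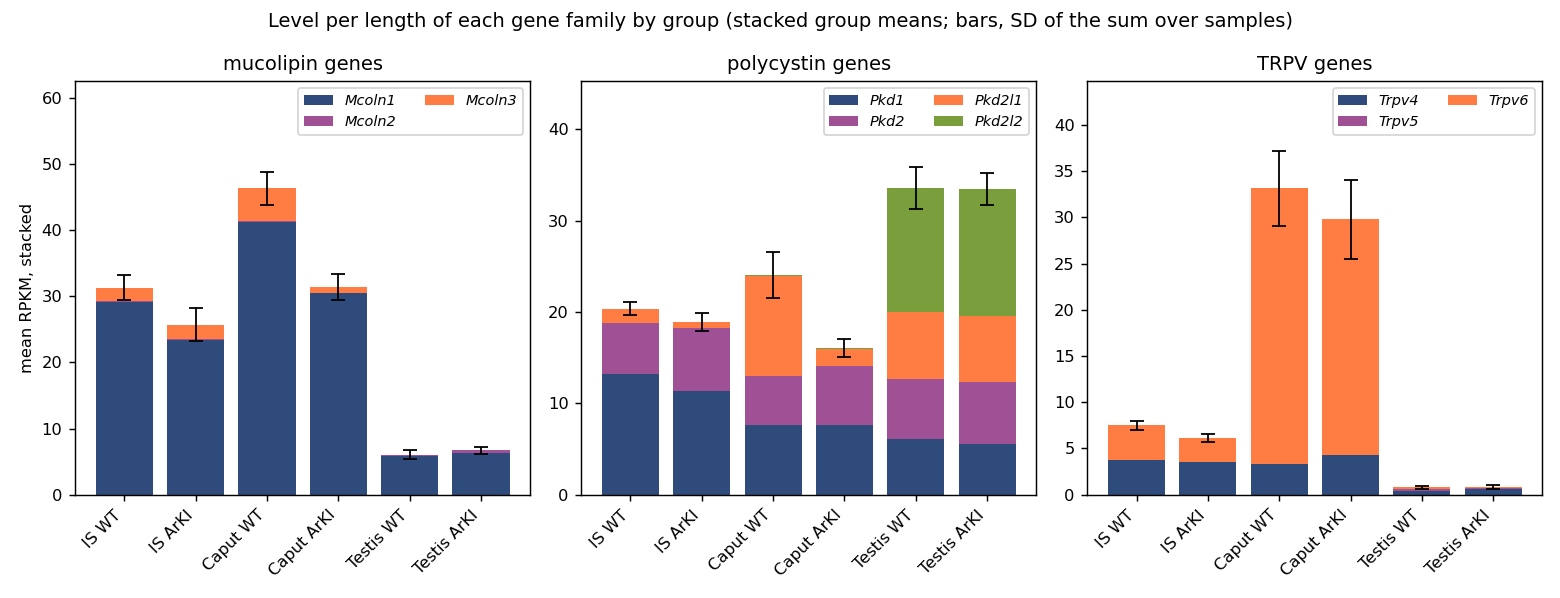
Stacked group means of RPKM (vertical axis, starting at 0) for the mucolipin, polycystin and TRPV genes in the 6 groups, with the SD of the summed level over samples as bars. *Mcoln1* and *Trpv6* make up most of their families in the caput of both genotypes. The *Pkd2l1* portion of the polycystin sum is large in WT caput and small in ArKI caput, which restates the fall by which it was chosen.

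Genes that work with these channels were read from 6 lists that contain no member, beside the shares of all genes called, which were 13.7% higher and 14.0% lower in the caput and 15.0% higher and 14.6% lower in the IS. Of 16 lysosomal channel and phosphoinositide enzyme genes, 7 were called lower and 1 higher in the ArKI caput. The median of the list was -0.14 on the log2 scale against 0.0017 for all genes tested. Among them were *Lamp1*, a lysosomal membrane glycoprotein (-0.31 ± 0.05 SE, adjusted p = 0.00014), *Ostm1*, the partner of the chloride transporter encoded by *Clcn7* (-0.29 ± 0.05, adjusted p = 0.00043), and *Fig4*, an enzyme of the phosphoinositide that opens mucolipins (-0.28 ± 0.08, adjusted p = 0.015). The endolysosomal channel gene *Tpcn2* was the one called higher (0.49 ± 0.13, adjusted p = 0.0090). In the ArKI IS edgeR called 6 of the 16 lower, and these 6 were also the genes at an unadjusted p under 0.05, with 5 called by DESeq2 and 6 by limma voom. *Ostm1* was at -0.53 ± 0.05 (adjusted p = 5.4e-07), *Clcn6* at -0.47 ± 0.17 (adjusted p = 0.040), *Fig4* at -0.34 ± 0.07 (adjusted p = 0.00056) and *Clcn7* at -0.28 ± 0.04 (adjusted p = 2.7e-05). *Mcoln1* was called lower in both segments.

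Epithelial calcium transport genes moved both ways. In the caput 2 of 8 tested were called higher and 3 lower (13.7% and 14.0% of all genes), with a list median of -0.15 against 0.0017 for all genes. Among them were *Vdr*, the vitamin D receptor (0.91 ± 0.18 SE, adjusted p = 0.0011), *S100a10*, whose protein helps to bring TRPV5 and TRPV6 to the membrane (0.57 ± 0.07, adjusted p = 5.4e-06), its partner *Anxa2* (-0.21 ± 0.05, adjusted p = 0.0067) and *Atp2b1*, a plasma membrane calcium pump (-0.65 ± 0.07, adjusted p = 1.3e-06). In the IS 3 of 9 were called higher and 4 lower (15.0% and 14.6% of all genes), with a list median of 0.14 against -4.4e-05 for all genes. *Atp2b3*, another calcium pump, was at -2.05 ± 0.15 (adjusted p = 6.7e-09), the sodium-calcium exchanger gene *Slc8a1* at -0.65 ± 0.14 (adjusted p = 0.0012) and *S100a10* at 0.68 ± 0.06 (adjusted p = 6.8e-08).

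Of 14 ciliary transport genes 7 were called higher and 1 lower in the ArKI IS (15.0% and 14.6% of all genes), where *Pkd2* was called higher too, with a list median of 0.15 against -4.4e-05 for all genes. *Ift88*, a subunit of the intraflagellar transport complex (0.51 ± 0.07 SE, adjusted p = 3.0e-05), and *Kif3a*, a motor subunit (0.48 ± 0.08, adjusted p = 0.00017), were among them. Of the ciliated cell markers, 3 of 3 tested were called higher in the ArKI IS and 1 of 2 tested was called lower in the ArKI caput. The part of ciliated cells in the changes of these ciliary genes was not tested. In the caput, where 13.7% of all genes were called higher and 14.0% lower, 1 of the 14 was called, *Kif3b* (-0.21 ± 0.07, adjusted p = 0.024). Of the polycystin-1 relatives *Pkdrej* was called lower in the caput (-0.48 ± 0.13, adjusted p = 0.013; 1 of 5 tested) and *Pkhd1*, the fibrocystin gene, higher in the IS (1.08 ± 0.17, adjusted p = 0.00054; 1 of 4 tested). Of the other TRP channel genes 1 of 6 was called in the caput (*Trpm4*, 0.20 ± 0.05, adjusted p = 0.0060) and 1 of 7 in the IS (*Trpm2*, -0.82 ± 0.21, adjusted p = 0.0067). Of the sperm channel genes 1 of 6 was called higher in the caput, *Hvcn1* (0.87 ± 0.23, adjusted p = 0.016). The 2 called lower were *Catsper3* (-2.89 ± 0.38, adjusted p = 2.2e-05), at a low average log2 CPM of 0.45, and *Catsperg1* (-0.66 ± 0.10, adjusted p = 6.1e-05). In the IS 0 of 3 tested were called by edgeR, DESeq2 or limma voom, with 1 at an unadjusted p under 0.05. In the testis edgeR, DESeq2 and limma voom called 0 genes of the 6 lists, with 0 to 4 genes per list at an unadjusted p under 0.05 in edgeR.

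Over the 20 epididymal samples the genes whose log2 CPM ran most like *Mcoln3* were *B930041F14Rik* (Pearson r = 0.935), *Lrrc10b* (0.922), *Man1a* (0.920), *Cacna1h* (0.902) and *Mylk2* (0.901), out of 14329 genes. For *Pkd2l1* they were *Inf2* (0.961), *Plcd1* (0.953), *Dmrtc1a* (0.951), *Lin7a* (0.948) and *Tmem63b* (0.948). The lists share no gene, and no other member was among them. Among the members, r with *Pkd2l1* was 0.919 for *Mcoln1*, 0.76 for *Trpv6* and 0.50 for *Mcoln3*. It was -0.19 for *Trpv4*, -0.60 for *Pkd2* and -0.61 for *Pkd1*. With *Mcoln3* it was 0.48 for *Mcoln1* and 0.02 for *Trpv6*. These values describe likeness over samples of 4 groups, whose differences in group level they contain.

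Genes that overlap a member or lie next to it were read as well. *Mcoln2* lies 7987 bases beyond *Mcoln3* and was near 0 counts in caput of both genotypes. *Ephb6*, a receptor kinase gene 109 bases from *Trpv6*, was called lower in the caput (-0.49 ± 0.07 SE, adjusted p = 2.9e-05), where *Trpv6* was not, and was not called in the IS (-0.16 ± 0.09, adjusted p = 0.22), where *Trpv6* was. *Pnpla6*, next to *Mcoln1*, was not called in the caput (-0.11 ± 0.07, adjusted p = 0.27) and was called lower in the IS (-0.13 ± 0.05, adjusted p = 0.038). *Rab26*, next to *Pkd1*, was called lower in the IS (-0.22 ± 0.07, adjusted p = 0.020), as *Pkd1* was. It was not called in the caput (-0.20 ± 0.70, adjusted p = 0.87). Both genes next to *Pkd2* were called higher in the IS, as *Pkd2* was. They were *Spp1* (2.14 ± 0.39, adjusted p = 0.0037) and *D930016D06Rik* (0.36 ± 0.09, adjusted p = 0.0048). In the caput, where *Pkd2* was called higher, *D930016D06Rik* was not called (0.03 ± 0.07, adjusted p = 0.83). Reads of overlapping genes cannot be told apart without strand. *Pkd1* shares 693 exon bases (4.72% of its exon length) with *Tsc2* on the opposite strand, which was not called in the IS (-0.07 ± 0.05, adjusted p = 0.26) and was called lower in the caput (-0.13 ± 0.05, adjusted p = 0.045). *Pkd2l2* shares 517 exon bases (12.95%) with *Fam13b*. In GENCODE no exon base of the other 8 members was shared. In RefSeq the span of *Mcoln3* overlaps *Wdr63*, which was called higher in the ArKI IS (1.59 ± 0.34, adjusted p = 0.0046), and that of *Pkd2l1* holds *Scd3*, which was called higher in the ArKI caput (0.95 ± 0.22, adjusted p = 0.0032).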

How the data were processed

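Libraries of polyadenylated RNA were sequenced from the IS, caput and testis. The deposited values are raw counts per RefSeq gene, which the authors made from reads aligned to mm10. The submitters' processing notes name bcl2fastq 1.8.4 and Subread 1.5.1. Whether counting used strand is not given in the sources used here. The check of the targeted gene is not reported here. The members and gene lists were chosen with earlier results of these data known.

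Each tissue was fitted with the edgeR 4.0.16 quasi-likelihood test (R 4.3.3, filterByExpr with a minimum count of 10 and minimum total of 15, TMM factors, robust), and a gene was called at a Benjamini-Hochberg adjusted p below 0.05 over all genes tested. The segment by genotype interaction used the 20 epididymal samples and the tissue comparison the 13 WT samples. Limma 3.58.1 (voom) and DESeq2 1.42.0 were alternatives, and voom stood in for the reproducibility-optimised statistic of the study, which was not run. Members below the filter were tested by exact two-sided permutation on log2(CPM + 0.5). CPM used TMM factors over all 26 samples, and RPKM the merged exons of GENCODE protein-coding transcripts. Named list genes were at most the 4 largest called changes per list and comparison, and likeness was Pearson correlation of log2(CPM + 0.5). The fit was tested on simulated counts. IS and caput came from the same 5 mice per genotype, but the labels do not tie segments to animals. Floors of 3 counts cover counting error only. Figures were drawn with matplotlib 3.10.9.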

Additional observations from a re-analysis of the deposited data

Results flagged for a closer look

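In 4 of 34 groups of 5 samples examined, 1 sample stood apart from the others by Dixon's criterion, where chance gives about 1.7. They were replicate 5 of the WT IS for *Mcoln3* (9.62 CPM), replicate 1 of the WT caput for *Pkd2* (30.8 CPM), replicate 1 of the WT IS for *Pkd2l1* (10.03 CPM) and replicate 4 of the ArKI caput for *Pkd2l2* (0.325 CPM, from 4 counts). The genotype effect on *Pkd1* differed between segments, by 0.22 on the log2 scale in the edgeR interaction test (adjusted p = 0.026), a call that was lost in 12 of 20 fits leaving out 1 library and with no filter on low counts, with adjusted p of up to 0.077.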

How the results depend on the processing

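At the study's thresholds 0 of the 5 relatives tested in the caput and 0 of the 7 members tested in the IS were called, the caput values of *Mcoln3* and *Pkd2l1* being outside the test. With no filter on low counts the interaction call of *Pkd1* was lost, leaving 0 calls. With at least 10 counts in every sample 5 members were called between testis and IS, since *Mcoln3*, *Pkd2l2* and *Trpv6* did not pass that filter. Leaving out 1 library gave 3 to 5 calls in the IS and 0 to 1 in the interaction. With library size only, both calls of *Pkd2* as higher in WT testis were lost and their direction turned, from 0.31 to -0.10 relative to the IS and from 0.34 to -0.049 relative to the caput. With no filter on low counts the call relative to the IS was lost too (0.17, adjusted p = 0.067). The other values that changed sign were not called. With library size only, *Pkd1* in the caput was 0.04. With no filter *Pkd1* in the caput was 0.0019. Leaving out 1 library gave -0.17 to 0.28 for *Mcoln3* in the IS, -0.035 to 0.029 for *Pkd1* in the caput, -0.077 to 0.0027 for *Pkd2* and -0.039 to 0.69 for *Pkd2l2* (at most 4 counts per sample, so nothing is read from its value) between WT caput and IS, and -0.12 to 0.11 for *Pkd2l2*, -0.080 to 0.063 for *Pkd2* and -0.082 to 0.024 for *Pkd2l1* in the testis. The cause was not tested.

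Samples of the same replicate number in 2 groups had correlations of deviations of -0.11 to 0.17. Samples of unlike number were not compared, so these values do not settle whether the numbers pair the samples. With the replicate number as a block the counts of calls were 2 in the caput, 5 in the IS, 0 in the testis and 1 in the interaction (*Pkd1* 0.22, adjusted p = 0.036), as without it. Low counts limit what can be said of *Mcoln2*, *Trpv5* and epididymal *Pkd2l2*, and in the testis 3 samples against 3 allow no exact p below 0.10.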
